A study of Homo sapiens with 9 samples.

Results

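Regions that carried a peak of ARID1B and a peak of ARID2, but no peak of ARID1A, numbered 535 of the 25247 regions bound by at least 1 of these 3 proteins in HepG2 cells. They were chosen by the presence and absence of called peaks, by pooling the 3 deposited ARID peak lists, joining peaks that overlapped by at least 1 bp, and keeping joined regions with ARID1B and ARID2 peaks and none of ARID1A. These peaks therefore define the regions and are described without a test.

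The study mapped binding of the chromatin remodeler SWI/SNF, subunit by subunit, by chromatin immunoprecipitation and sequencing (ChIP-seq) in HepG2. HepG2 is an established human liver cancer line. No treatment was given, and formaldehyde-fixed chromatin was cut with micrococcal nuclease before immunoprecipitation. The 9 libraries comprised 2 replicates each for antibodies against ARID1A, ARID1B, ARID2 and SNF5, together with 1 input library that was not used here. The authors called peaks after merging both replicates, so each antibody is represented by 1 list, no value below has a replicate error, and the read depth behind each list is unknown.

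SWI/SNF complexes use the energy of ATP to slide or evict nucleosomes, and they exist in several forms that differ in their ARID subunit. ARID1A and ARID1B are alternative, mutually exclusive members of the form known as BAF, whereas ARID2 belongs to the form known as PBAF. SNF5 (SMARCB1) is a core subunit found in both forms, and genes for ARID subunits are recurrently mutated in liver cancer.

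To show the DNA under these regions, the stretch shared by the ARID1B and ARID2 peaks is printed for 5 of them. They were among those with the longest shared stretches of at most 300 bp outside annotated exons, with a pair each from promoters and distal sites and 1 from an intron. Sequences are from the plus strand of GRCh37 (hg19), 5′ to 3′, and capitals mark matches to the motifs searched below. The promoter pair lay at chr16:14596178-14596453, within the gene body of PARN, which encodes a poly(A)-specific ribonuclease, and at chr22:38200456-38200731, near H1F0, which encodes the linker histone H1.0. Their regions lay 526 bp and 571 bp from the nearest transcription start site (TSS). The intron stretch lay at chr14:25309462-25309713 in STXBP6, which encodes a syntaxin-binding protein. The distal pair lay at chr5:135309368-135309667, with LECT2, a secreted protein of hepatocytes, as the nearest gene at 18733 bp, and at chr20:17855996-17856274, 12790 bp from RP5-905G11.3.
PARN: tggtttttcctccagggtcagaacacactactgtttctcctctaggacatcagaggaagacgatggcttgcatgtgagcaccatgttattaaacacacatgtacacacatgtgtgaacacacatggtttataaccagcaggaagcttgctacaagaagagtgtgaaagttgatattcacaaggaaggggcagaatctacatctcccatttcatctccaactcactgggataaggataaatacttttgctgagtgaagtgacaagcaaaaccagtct
H1F0: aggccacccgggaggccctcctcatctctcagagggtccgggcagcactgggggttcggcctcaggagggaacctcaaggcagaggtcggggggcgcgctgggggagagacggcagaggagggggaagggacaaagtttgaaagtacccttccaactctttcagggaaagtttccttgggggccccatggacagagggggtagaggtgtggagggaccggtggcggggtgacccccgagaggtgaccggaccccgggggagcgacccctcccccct
STXBP6: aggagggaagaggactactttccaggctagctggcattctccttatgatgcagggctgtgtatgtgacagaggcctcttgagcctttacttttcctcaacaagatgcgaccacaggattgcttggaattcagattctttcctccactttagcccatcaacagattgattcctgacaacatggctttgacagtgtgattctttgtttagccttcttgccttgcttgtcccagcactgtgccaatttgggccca
LECT2: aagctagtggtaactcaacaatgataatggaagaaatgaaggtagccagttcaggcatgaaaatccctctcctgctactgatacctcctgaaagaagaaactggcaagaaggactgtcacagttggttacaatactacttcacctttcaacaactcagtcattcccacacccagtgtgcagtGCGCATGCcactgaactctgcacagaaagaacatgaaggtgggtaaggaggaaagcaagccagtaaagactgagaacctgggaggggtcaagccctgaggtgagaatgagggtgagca
RP5-905G11.3: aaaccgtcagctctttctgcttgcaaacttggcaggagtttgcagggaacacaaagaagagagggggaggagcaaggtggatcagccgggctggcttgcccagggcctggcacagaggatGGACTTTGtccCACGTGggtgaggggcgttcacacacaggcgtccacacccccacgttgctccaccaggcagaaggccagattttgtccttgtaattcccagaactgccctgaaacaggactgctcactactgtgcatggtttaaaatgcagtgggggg

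The shared stretch at CTNND1, 1 of the listed genes, is shown as well because its region is described below, and it was chosen after the values were seen. It lay at chr11:57546095-57546296, in an intron.
CTNND1: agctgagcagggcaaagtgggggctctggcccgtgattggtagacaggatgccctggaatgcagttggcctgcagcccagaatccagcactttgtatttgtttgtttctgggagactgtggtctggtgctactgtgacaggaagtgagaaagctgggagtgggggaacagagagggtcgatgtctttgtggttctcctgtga

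Among these 6 stretches, GCGCATGC (NRF1) was found in LECT2 from base 183. In RP5-905G11.3, CAAAGTCC (HNF4) was found on the minus strand from base 121 and CACGTG (E-box) from base 132, and these matches did not overlap. The stretches of PARN, H1F0, STXBP6 and CTNND1 held no match to the motifs searched. GC content ran from 42.75% in PARN to 67.4% in H1F0.

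The regions were mostly pairs of peaks that overlapped in part. In 519 of 535 regions there was 1 ARID1B and 1 ARID2 peak, 10 regions held 2 ARID2 peaks, 5 held 2 ARID1B peaks and 1 held 3 ARID1B peaks. They contained 6.21% of the 8728 ARID1B peaks and 4.19% of the 12995 ARID2 peaks. Region width had a median of 372 bp (quartiles 249 and 507 bp, range 58 to 1475 bp). The shared stretch had a median of 98 bp (quartiles 52 and 150.5 bp, range 1 to 643 bp), and the midpoints of the ARID1B and ARID2 peaks lay a median of 96.5 bp apart. Neither protein was regularly the wider, since the ARID1B peak was wider in 291 regions and the ARID2 peak in 244. The ARID1B peak lay wholly within the ARID2 peak in 101 regions, and the reverse held in 119. A mutual overlap of at least 50% of both peaks was found in 124 regions (23.2%, Wilson 95% interval 19.8 to 26.9).

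Because 1 bp decided membership, the regions on either side of that limit are given without a test. Of the members, 24 shared at most 10 bp, of which 19 were overlapped by SNF5 and 11 were promoters. Just outside, 25 regions with ARID1B alone had an ARID2 peak 0 to 10 bp away, of which 18 were overlapped by SNF5 and 16 were promoters. Whether that ARID2 peak belonged to a region with ARID1A was not checked, so some of the 25 may not border on membership.

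**Figure D1:**
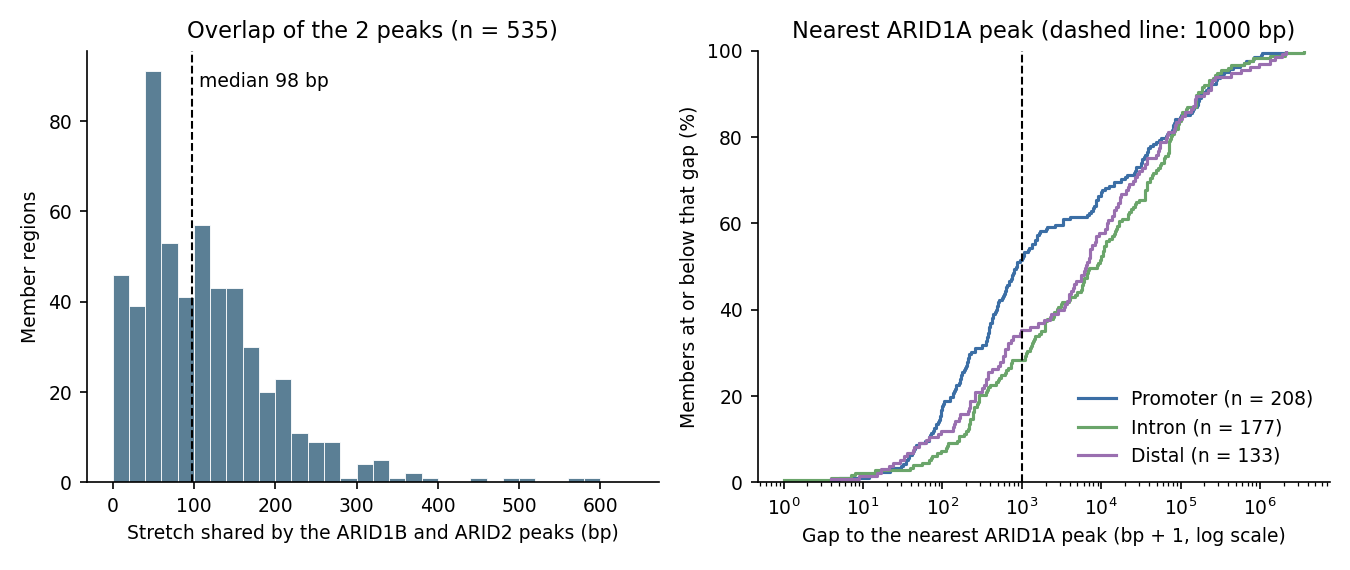
Left, histogram of the stretch in bp shared by the ARID1B and ARID2 peaks of the 535 regions, with a dashed line at the median of 98 bp. Right, cumulative percentage of promoter, intron and distal members against the gap in bp (plus 1, log scale) to the nearest ARID1A peak, where at 1000 bp the promoter curve stands at 51.4%, the intron curve at 28.2% and the distal curve at 35.3%.

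ARID1A peaks were often close to regions that had none. The nearest ARID1A peak lay a median of 4027 bp from the region (quartiles 327 and 44058.5 bp). It was within 100 bp of 67 regions and within 1000 bp of 209 (39.1%, Wilson 95% interval 35.0 to 43.3), while 218 regions had none within 10000 bp and 82 none within 100000 bp. Over all regions with ARID1B alone or ARID2 alone, 35.5% had an ARID1A peak within 1000 bp. The values were 21.6% for ARID1B alone and 46.0% for ARID2 alone, so the share among members lay between these classes. Promoter members had an ARID1A peak within 1000 bp in 107 of 208 cases, intron members in 50 of 177 and distal members in 47 of 133. In 1 region, assigned to AC005104.3, the ARID1A peak began at the adjoining base. Whether ARID1A signal below the calling threshold lay inside these regions was not tested.

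The next question was where in the genome these regions lie. By the deposited feature class of the widest peak, 208 regions were promoters (38.9%, Wilson 95% interval 34.8 to 43.1), 177 were intronic (33.1%), 133 were distal (24.9%) and 17 were exonic (3.18%). Over all 25247 regions 57.6% were promoters. The median distance to the nearest TSS was 2189 bp, and it was 261 bp for promoter members, 5784 bp for intron members and 11675 bp for distal members. Promoter members lay at most 983 bp from the TSS, so the deposited class was narrower than the promoter window given in the paper. Regions with ARID1A and ARID2 only were promoters in 85.7% of 3146 cases, regions with ARID1A and ARID1B only in 51.6% of 801, and regions with all 3 ARIDs in 71.1% of 1907. Members thus had the lowest promoter share of the 4 classes that held at least 2 ARIDs.

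In two-sided Fisher exact tests, adjusted over 9 tests by the Benjamini-Hochberg method, each of these differences passed the threshold of 0.05. Against ARID1A and ARID2 only, the promoter share was lower by 46.9 percentage points (members minus other -46.9, 95% interval -51.1 to -42.5, odds ratio 0.106, exact test, adjusted p = 3.66e-109). Against ARID1A and ARID1B only, the difference was -12.7 points (-18.0 to -7.24, odds ratio 0.598, exact test, adjusted p = 8.51e-06). Against all 3 ARIDs it was -32.2 points (-36.7 to -27.5, odds ratio 0.259, exact test, adjusted p = 9.17e-41). For orientation, 21.9% of regions with ARID1B alone and 58.8% of those with ARID2 alone were promoters, so the members fell between the classes of their own 2 proteins. Regions are not replicates, so each test compares deposited lists. The effects of a subunit, of its antibody and of library depth cannot be told apart.

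**Figure D2:**
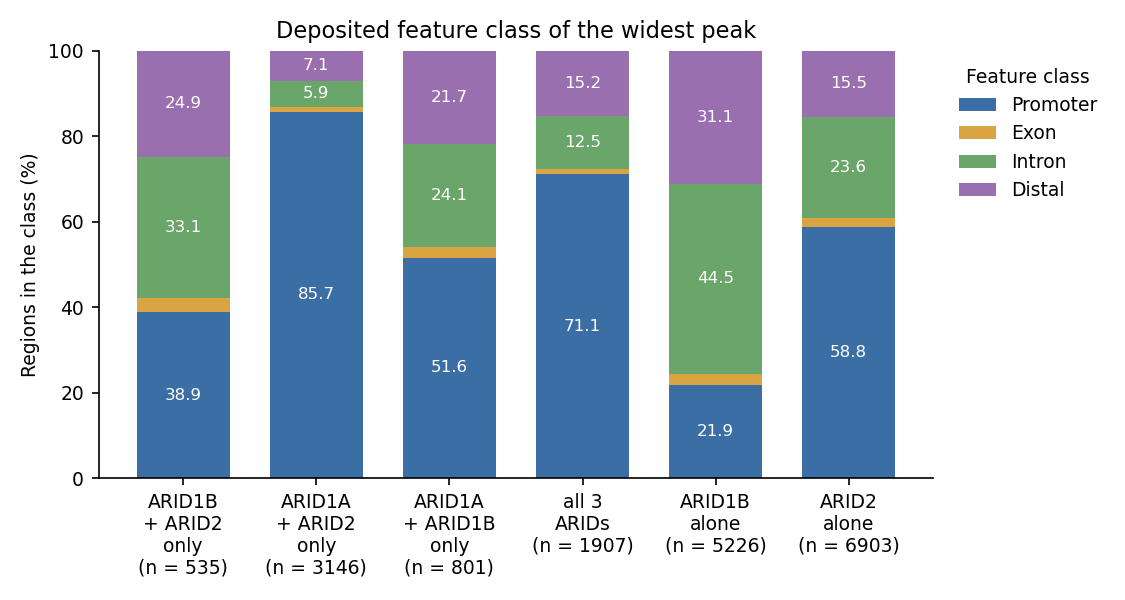
Stacked bars give the percentage of regions in each deposited feature class (promoter, exon, intron, distal) for 6 classes of region, with the number of regions under each bar. The promoter part is 38.9% in the members, against 85.7%, 51.6% and 71.1% in the other classes with at least 2 ARIDs.

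Of the 209 members with an ARID1A peak within 1000 bp, 107 were promoters. Without them, 101 of 326 members (31.0%) were promoters, and the differences from the 3 classes became larger (odds ratios 0.0747, 0.422 and 0.182, adjusted p = 1.27e-95, 4.47e-10 and 3.51e-42 by Fisher exact test). This filter used ARID1A peaks, as the rule did, and the comparison classes, which hold ARID1A, were left unfiltered. ARID1A peaks were often at promoters (69.4% of regions with ARID1A alone), so the larger differences add no support.

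Among chromosomes, chromosome 2 carried 61 members, chromosome 6 carried 60 and chromosome 1 carried 46. Relative to all regions on the chromosome, members made up 3.99% on chromosome 18, 3.29% on chromosome 6 and 3.18% on chromosome 20. The shares were 1.13% on chromosome 3, 0.984% on chromosome 11 and 0.709% on chromosome 21 (1 of 141 regions), beside 535 of 25247 over the genome, and no member lay on X or Y, which held 117 and 30 regions. HepG2 is known to be aneuploid, and the part of copy number in these shares was not tested.

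Most members coincided with the core subunit. An SNF5 peak overlapped 461 of 535 regions (86.2%, Wilson 95% interval 83.0 to 88.8), beside 60.1% of all regions, 44.6% of regions with ARID1B alone and 48.6% with ARID2 alone. Members were wider than these, with a median of 372 bp against 194 bp, 138 bp and 153 bp. The part of width in their higher SNF5 share was not tested. The share was 87.6% in regions with ARID1A and ARID2 only, and the difference of -1.44 points (95% interval -4.81 to 1.49) did not pass (Fisher exact test, adjusted p = 0.405). It was 87.1% in regions with ARID1A and ARID1B only (difference -0.973 points, -4.81 to 2.68, adjusted p = 0.622 by Fisher exact test). Both intervals reached down to -4.81 points, and the sign of both differences changed with the definition of overlap. Regions with all 3 ARIDs were overlapped in 97.5% of cases, which exceeded the members by 11.3 points (members minus other -11.3, -14.6 to -8.53, odds ratio 0.161, Fisher exact test, adjusted p = 4.3e-21). Those regions were also wider, with a median of 720 bp against 372 bp, and within 5 strata of width the difference kept its direction (Mantel-Haenszel odds ratio 0.444). In points, the difference shrank to -3.12 (odds ratio 0.294) when SNF5 within 1000 bp was counted. With the widest 50% of peaks it was -5.98 points, while the odds ratio of 0.051 was lower than the main value of 0.161. The difference passed in both settings.

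By place, promoter members had a lower SNF5 share than intron and distal members, which was not tested. SNF5 overlap was found in 163 of 208 promoter members (78.4%, Wilson 95% interval 72.3 to 83.4), 13 of 17 exon members, 163 of 177 intron members (92.1%, 87.2 to 95.2) and 122 of 133 distal members (91.7%, 85.8 to 95.3). In regions with ARID1A and ARID2 only, the same shares were 87.6% for promoters, 87.7% for introns and 88.8% for distal regions. The difference between these patterns was not tested.

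**Figure D3:**
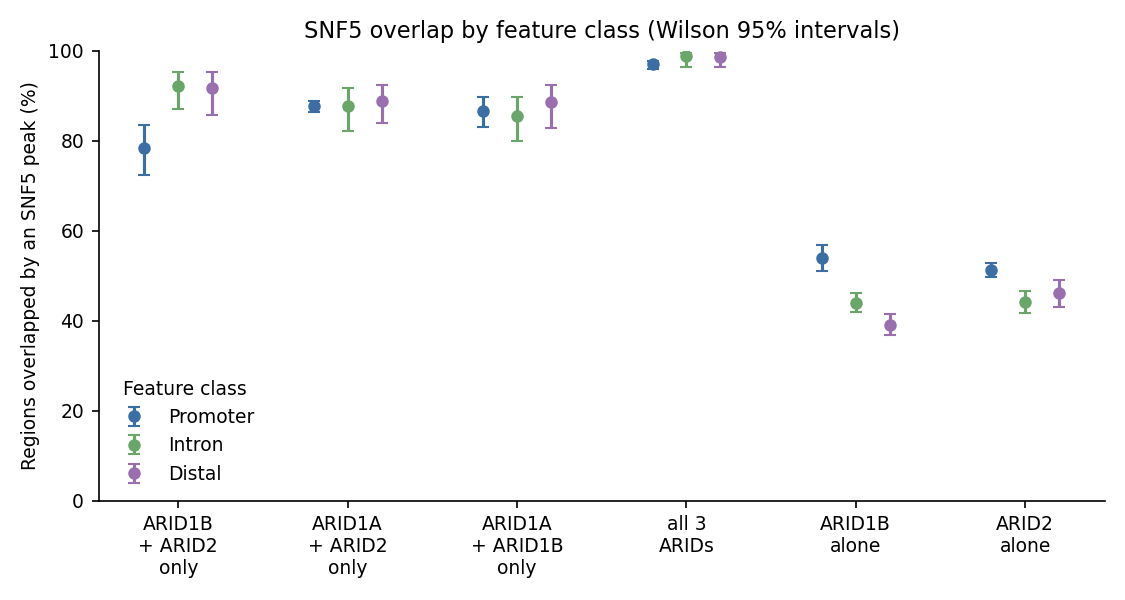
Points give the percentage of promoter, intron and distal regions overlapped by an SNF5 peak in 6 classes of region, and bars are Wilson 95% intervals over regions. Promoter members stand at 78.4%, under intron and distal members at 92.1% and 91.7%, while regions with ARID1B alone or ARID2 alone lie between 39.1% and 54.0%.

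The SNF5 peaks over members were broad, with a median width of 1265 bp and a median score of 23 (range 11 to 84, in the authors' units). Of the 461 overlapped members, 167 (36.2%) lay under an SNF5 peak that also touched an ARID1A peak, beside 31.0% of overlapped regions with ARID1B alone and 47.2% with ARID2 alone. Of the 449 distinct SNF5 peaks, 10 covered at least 2 members. Among the 74 members without SNF5 overlap, 50 had an SNF5 peak within 1000 bp, and the median gap was 308.5 bp.

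Chromatin state labels (such as active promoter or strong enhancer) were deposited for each ARID peak, but they could be read on chromosome 1 alone. There, the ARID1B and ARID2 peaks of a member carried the same label in 40 of 46 regions (87.0%, against 42.4% from the label frequencies). On the other chromosomes the labels were the same in 154 of 489 (31.5%, against 28.2%). The nearest gene, by comparison, was the same for both peaks in 523 of 535 members and the feature class in 521. The state values for the whole genome, and their tests, rest on those labels. They are given for completeness, and no conclusion is drawn from them. By the widest peak, 232 of 535 members (43.4%, beside 29.1% of all regions) had a label naming an enhancer, against 21.2%, 33.8% and 28.6% of the classes in the order above (Fisher exact test, adjusted p = 2.9e-25, 0.000693 and 4.3e-10). Regions with ARID1B alone had 49.7%. When any peak of the region was counted, the comparison with all 3 ARIDs turned to 61.3% against 64.8% and no longer passed (odds ratio 0.862, Fisher exact test, adjusted p = 0.154).

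On chromosome 1, 20 of 46 members (43.5%) had an enhancer label. The share was 34 of 306 (11.1%) in regions with ARID1A and ARID2 only, which was lower (odds ratio 6.15, Fisher exact test, adjusted p = 1.69e-06), and 26 of 128 (20.3%) in regions with all 3 ARIDs, which was also lower (odds ratio 3.02, adjusted p = 0.00504). It was 27 of 77 (35.1%) in regions with ARID1A and ARID1B only, and the difference of 8.41 points (95% interval -8.91 to 25.7) did not pass (Fisher exact test, adjusted p = 0.443). The labels followed the feature class, of which the comparisons above took no account. On chromosome 1, 26 of the 46 members were promoters, beside 38.9% of all members. Of 26 promoter members 20 were active promoters and 2 weak promoters, whereas 8 of 9 intron members and 6 of 8 distal members were strong enhancers. Among the named promoters of chromosome 1, those of ID3, F5 and PROX1 were labelled active promoters.

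Member promoters had a lower GC content than promoters of the 3 classes with another pair or all 3 ARIDs, and one near that of promoters with ARID1B alone or ARID2 alone. In a 300 bp window at the region's midpoint, GC content had a median of 50% over all members, 56.5% (quartiles 48.6 and 64.4) in promoter members and 47.3% (41.3 and 53.0) in the rest. Promoter regions of the 3 comparison classes had medians of 66.7%, 67.3% and 66.3% in the order above. CpG dinucleotides, which cluster in CpG islands at many housekeeping promoters, numbered a median of 13 per window in promoter members and 27 in promoters of each of those classes. The promoters bound by ARID1B alone or ARID2 alone had medians of 56.3% and 55.3% GC and of 11 and 13 CpG, near those of the members.

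Motif letters were counted on either strand of the same windows, as a description with no test. The GC box, searched as GGGCGG, was present in 21.1% of members (17.9 to 24.8) and 37.7% of all regions, and in 37.5% of promoter members beside 66.4%, 65.4% and 66.6% of promoters in the 3 comparison classes. It was present in 36.0% of promoters with ARID1B alone and 38.3% of those with ARID2 alone, close to the members. NRF1 letters, searched as GCGCATGC, were present in 0.561% of members, 2.78% of all regions and 9.50% of regions with ARID1A and ARID2 only. ETS letters, searched as CCGGAAG, were present in 4.67% of members and 7.23% of all regions, and the E-box, searched as CACGTG, in 4.67% and 6.50%.

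Letters of several factors known from liver chromatin were compared in the same way. HNF4 letters, searched as CAAAGTCC, were present in 5.05% of members (3.49 to 7.24) and 2.28% of all regions. FOXA letters, searched as TGTTTAC, were present in 6.92% (5.06 to 9.39) and 4.46%, and C/EBP letters, searched as TTGCNCAA, in 5.98% (4.27 to 8.32) and 3.43%. TEAD letters, searched as ACATTCC, were present in 6.54% (4.74 to 8.96) and 3.87%. The values for AP-1, searched as TGANTCA, were 9.53% (7.33 to 12.3) and 7.82%, and for GATA, searched as AGATAAG, 3.36% and 2.91%, where the interval of the members included the value for all regions. For HNF4, FOXA, C/EBP and AP-1, the classes with ARID2 and no ARID1B lay below all regions. In that order, values were 1.144%, 2.956%, 2.257% and 4.768% in regions with ARID1A and ARID2 only. They were 1.985%, 4.36%, 3.173% and 7.504% in regions with ARID2 alone, where each Wilson interval included the value for all regions. TEAD and GATA letters went the other way in regions with ARID2 alone, at 4.65% and 3.274% (GATA interval 2.879 to 3.72), above all regions. The classes with ARID1B and no ARID2 lay above all regions for HNF4, FOXA, C/EBP and AP-1. These class values mix promoter and non-promoter regions, and the part of feature class was not tested. In regions with ARID1A and ARID1B only, HNF4, FOXA, C/EBP and AP-1 letters were present in 4.00%, 7.24%, 5.87% and 11.2%, and in regions with ARID1B alone in 3.31%, 6.32%, 4.84% and 10.9%. In non-promoter regions the members and all regions had 6.42% and 3.42% for HNF4, 9.79% and 6.84% for FOXA, 7.03% and 5.20% for C/EBP, 6.73% and 5.37% for TEAD, and 11.3% and 11.5% for AP-1. There, the intervals of the members for C/EBP (4.73 to 10.3), TEAD (4.49 to 9.98) and AP-1 (8.32 to 15.2) included the values for all regions. In the same order, non-promoter regions with ARID1A and ARID1B only had 5.41%, 10.8%, 9.79%, 5.67% and 18.3%. Those with all 3 ARIDs had 5.63%, 10.5%, 7.80%, 5.08% and 12.5%. Those with ARID1A and ARID2 only had 1.34%, 7.80%, 4.68%, 3.56% and 10.5%. Higher shares than over all regions were thus not particular to the members. CRE letters, searched as TGACGTCA, were found in 2 members, an HNF1 palindrome in 1 and an NFI palindrome in none, which for NFI allows a share of up to 0.713% (Wilson).

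**Figure D4:**
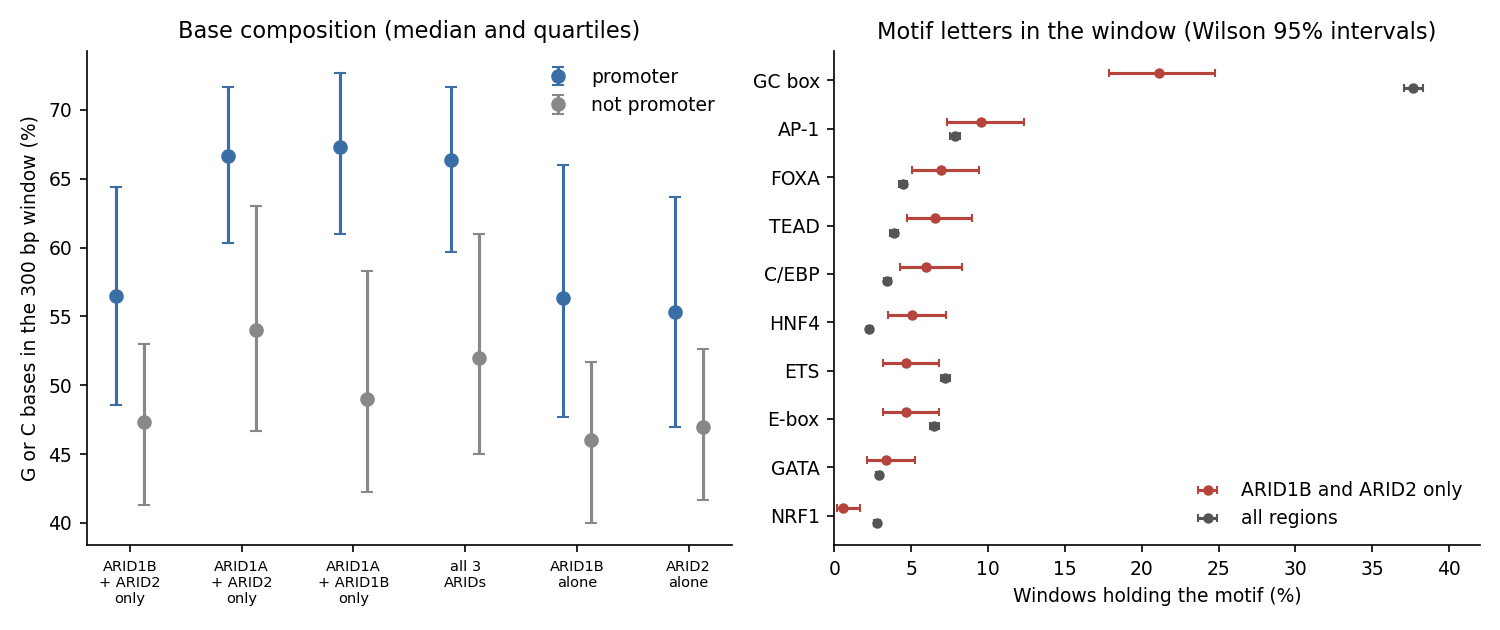
Left, median percentage of G or C bases in the 300 bp window, with quartiles as bars, for promoter and other regions of 6 classes, where promoter members stand at 56.5% and promoters of the ARID1A-containing classes between 66.3% and 67.3%. Right, percentage of windows that hold each motif in the 535 members and in all 25247 regions with Wilson 95% intervals, where the GC box stands at 21.1% against 37.7% and HNF4 at 5.05% against 2.28%.

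The members were assigned to 490 gene names, 3.94% of the 12428 names that were nearest to any ARID peak. Of these names 456 had 1 member, 28 had 2 and 6 had 3 or more. An ARID1A peak was assigned elsewhere to 322 of the 490 names, and 168 (34.3%) had none. Among all names with both ARID1B and ARID2 peaks, 571 of 3193 (17.9%) had no ARID1A peak. The rule itself kept ARID1A out of the members, and the difference was not tested. Against names with both ARID1B and ARID2 peaks anywhere, 484 of 3193 (15.2%) had a member, which is the share against which the lists of genes below are read.

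Genes with several members were led by ZNF217, which encodes a zinc finger transcription factor often amplified in tumours. It had 4 members, all intronic by the deposited class, among 14 ARID1B, 16 ARID2 and 3 ARID1A peaks. Of these members 3 lay under a single SNF5 peak of 8750 bp, at chr20:52207960-52208173, chr20:52208468-52208864 and chr20:52212751-52213358, and the nearest ARID1A peaks were 1369 bp, 678 bp and 1094 bp away. The other lay at chr20:52239412-52239663, 351 bp from ARID1A. RREB1, a Ras-responsive zinc finger factor, had 3 members on chromosome 6, in its promoter, an exon and an intron, among 8 ARID1B, 6 ARID2 and 4 ARID1A peaks. Its intron member at chr6:7160749-7161035 lay 16752 bp from ARID1A and the other 2 lay 805 bp and 104 bp away.

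DCBLD1, which encodes a transmembrane protein, had 3 members on chromosome 6 beside 1 ARID1A peak assigned to it. C20orf112, named NOL4L in the newer annotation, had 3 intronic members, and the long noncoding gene RP11-345J4.8 had 3 members under 1 SNF5 peak of 2231 bp. The name U6 had 7 members on 6 chromosomes, but it stands for many copies of the spliceosomal RNA gene and not for 1 locus. Outside the naming rule, AGT (angiotensinogen) and CPS1 (the first enzyme of the urea cycle) were among the names with 2 members and were picked after their values were seen.

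The longest stretches shared by ARID1B and ARID2 were outside the deposited promoter class in 9 of 10 cases, while 38.9% of all members were promoters. The longest, 643 bp, was in an intron of ACSM5, a mitochondrial acyl-CoA synthetase, at chr16:20437730-20438631, under an SNF5 peak of score 45 and 1671 bp from ARID1A. A distal region 22475 bp from the pseudogene HMGN1P17 shared 594 bp, and the promoter of AC006076.1 shared 568 bp. A distal region 3407 bp from MBL2, mannose-binding lectin, a complement-activating protein made by the liver, shared 508 bp, and its nearest ARID1A peak was 1891073 bp away. Stretches of 483 bp near PTP4A1 (a tyrosine phosphatase), 449 bp in ROCK2 (a kinase of the actin cytoskeleton), 394 bp in RPL10A (a ribosomal protein) and 371 bp in EPAS1 (the hypoxia-inducible factor HIF-2 alpha) had ARID1A at 28 bp, 279 bp, 163 bp and 208 bp. Near AC068138.1 361 bp were shared and in TMEM181 347 bp, with ARID1A at 573296 bp and 4653 bp. All 10 regions were overlapped by SNF5, beside 86.2% of all members, and the gaps to ARID1A ran from 28 bp to 1891073 bp. The regions at RPL10A, ROCK2 and EPAS1, classed as intronic, lay 1147 bp, 1159 bp and 1951 bp from the nearest TSS. These distances are inside the promoter window given in the paper.

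The SNF5 peak of highest score over a member, 84, lay in STXBP6 at chr14:25307905-25309809 and is the region whose shared stretch is printed above. It stood apart from the next, which scored 50 at RP11-4F22.2, within PRKCA (a protein kinase C). Scores of 48 at CTB-50E14.5, 47 near VPS54 (vesicle tethering), 46 at AC010525.2, RP11-30P6.6 and TMEM2 (a hyaluronidase), 45 at ACSM5, 43 at AC114494.1 and 42 at RPS21P8, tied with SYNJ2, followed. The gap to ARID1A was 195 bp for STXBP6, 66 bp for TMEM2, 335 bp for RP11-30P6.6 and at least 1671 bp for the other 7.

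Genes of plasma proteins and apolipoproteins, the main secreted products of hepatocytes, held the most listed members. Of 41 such genes with any ARID peak 7 had a member, beside 3.94% of all names, and of 20 with ARID1B and ARID2 peaks 7 had one (35.0%, beside 15.2% over all such names). The list was chosen with earlier results known, so its count is a description. At ALB, which encodes albumin, a distal region at chr4:74240829-74241163, 21833 bp from the TSS, held an ARID1B peak of 335 bp with an ARID2 peak of 149 bp inside it, under SNF5 (score 25), and ARID1A was 55571 bp away. At HP (haptoglobin), the promoter region chr16:72088487-72088757, 82 bp from the TSS and also within TXNL4B, held an ARID2 peak of 120 bp inside an ARID1B peak of 271 bp, and ARID1A was 38621 bp away. At F5 (coagulation factor V), the promoter region chr1:169555863-169556101 was 148 bp from the TSS with a shared stretch of 42 bp, and ARID1A was 207981 bp away. These 3 genes had no ARID1A peak assigned to them.

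APOA1, the main protein of high-density lipoprotein, also had none, and its promoter region held an ARID1B peak of 1078 bp and an ARID2 peak of 246 bp inside it, with SNF5 score 20. Here an ARID1A peak assigned to another gene lay 1637 bp away. APOB, the main protein of low-density lipoprotein, had 2 members. The intron region chr2:21264016-21264377 shared 20 bp, lay 214 bp from ARID1A and was under an SNF5 peak of 4361 bp, while the distal region chr2:21279135-21279283 shared 125 bp and was 11868 bp from ARID1A. ITIH2, an inter-alpha-trypsin inhibitor chain, had a distal member with ARID1A 5554 bp away. FGL1, a fibrinogen-like protein, had a distal member with ARID1A at 32 bp and no SNF5 overlap. Of the 8 regions, 7 were overlapped by SNF5, and 2 had an ARID1A peak within 1000 bp, beside 86.2% and 39.1% of all members.

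**Figure D5:**
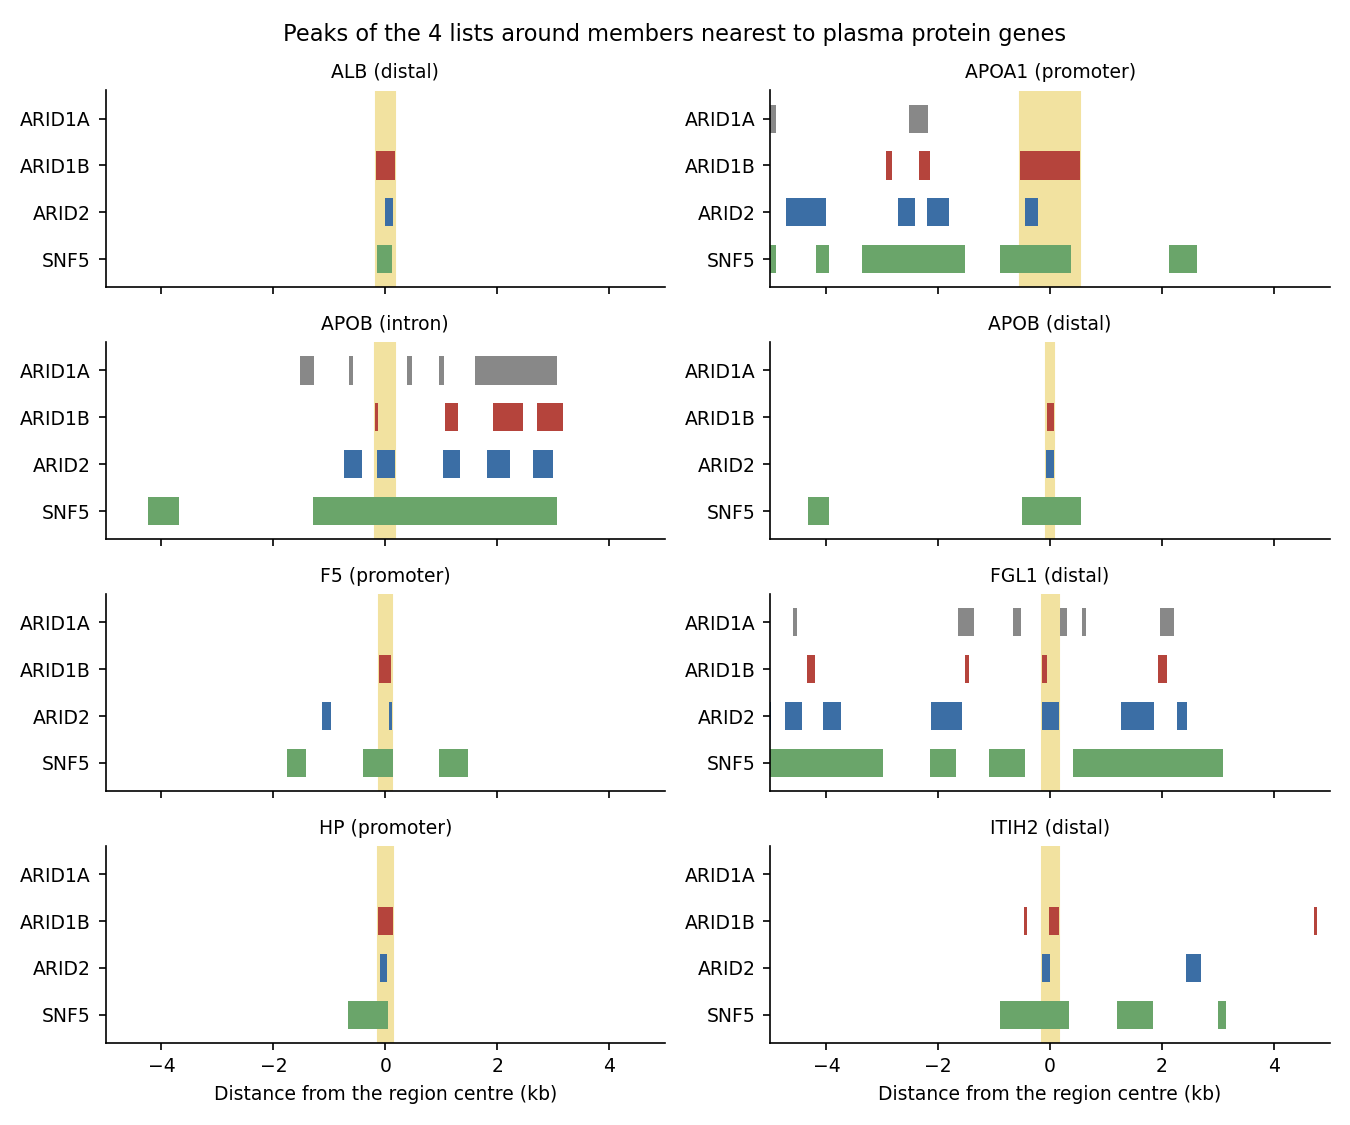
Each panel shows the peaks of ARID1A, ARID1B, ARID2 and SNF5 as bars within 5 kb of the centre of a member nearest to a plasma protein gene, with the member shaded and distance in kb along the axis in chromosome order. No ARID1A bar appears for ALB, F5, HP, ITIH2 or the distal APOB region, whereas ARID1A bars flank the members at FGL1 and in the APOB intron.

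Among genes of actin, adhesion and cell shape, 5 of 50 had a member (10.0%), and 5 of 23 with both peaks (21.7%). The CTNND1 member (p120 catenin) lay 215 bp from ARID1A, that of VASP (an actin filament elongation factor) 292 bp, that of ROCK2 279 bp, that of KRT8 (keratin 8) 722 bp and that of ACTN4 (alpha-actinin 4) 5826 bp. SNF5 overlapped all but the KRT8 member, beside 86.2% of all members. An ARID1A peak was thus within 1000 bp of 4 of the 5 members, beside 39.1% of all members, and the difference was not tested.

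The remaining lists are given over their genes with both ARID1B and ARID2 peaks, beside the 15.2% of all such names. In the TGF-beta and SMAD list, 2 of 17 (11.8%) had a member, namely at the promoters of ID3, an inhibitor of helix-loop-helix factors, and SMAD6, an inhibitory SMAD, at 319 bp and 387 bp from ARID1A. Of 7 SWI/SNF subunit genes ARID2 itself had members, 1 in its promoter at chr12:46124352-46124614 with SNF5 (score 25) and ARID1A at 495 bp, and 1 in an exon at chr12:46298595-46299095 with SNF5 at 84172 bp and ARID1A at 84456 bp. Of 12 hepatocyte transcription factor genes PROX1 had a member, at its promoter, and of 13 cholesterol and lipid synthesis genes INSIG2, which retains the sterol sensor complex, had a distal one. Among genes named ZNF, 4 of 36 (11.1%) had a member, namely ZNF217, ZNF251, ZNF443 and ZNF512B. No member was assigned to the genes with both peaks in the lists for AP-1 (6), HDACs and corepressors (8), TEAD and Hippo (10), insulin and IGF (9), cyclins and CDK inhibitors (7), the factors that the study placed with ARID1B (3) or the genes it assayed by qPCR (3). Each of these lists holds at most 10 such genes, and no test was run on the counts.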

How the data were processed

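ChIP-seq peak lists of ARID1A, ARID1B, ARID2 and SNF5 from HepG2 were analysed. Per the methods, the authors used bowtie2 for alignment to hg19, removed duplicates, pooled the replicates with samtools, ran MACS2 for broad peaks, joined neighbouring peaks and removed blacklisted ones. Deposited values were peak positions, feature class, nearest gene, TSS distance in bp and chromatin state for ARID peaks, and the authors' peak score for SNF5 (its scale was not given in the sources used here). Lists hold no counts, so depth and replicate error are unknown.

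Peaks were joined at 1 bp overlap with pandas 2.3.3. A region took class, gene and state from its widest peak. Shares carry Wilson 95% intervals, which cover counting error over regions only, and were compared by two-sided Fisher exact tests (scipy 1.17.1) with Benjamini-Hochberg adjustment and Newcombe intervals of the difference, and tested on simulated data. For 510 of 535 members the deposited promoter class was the same as a class set by a Gencode v44 TSS under 1000 bp away. The nearest gene name was found in v44 for 375 of 535 members. Of these, 318 had a v44 distance within 100 bp of the deposited one. Sequence and motif windows came from GRCh37 (pysam 0.24.0). Genes named were those of the 10 longest shared stretches, the 10 highest SNF5 scores, names with at least 3 members, and listed genes. Members and lists were chosen with earlier results of these data known. Alternatives are given in the closing section. RNA-seq and signal tracks were not analysed here, and 1 listed gene and 2 of the selected sequences are not reported here.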

Additional observations from a re-analysis of the deposited data

How the results depend on the processing

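The number of members depended on the overlap required. It was 124 with a reciprocal overlap of at least 50%, 326 without members that had an ARID1A peak within 1000 bp, 332 with the widest 50% of peaks, and within 1.5 times of 535 with peaks joined at most 1000 bp apart (583) or on autosomes (535). The promoter comparisons kept direction and threshold under every alternative run. Among these, the setting without nearby ARID1A peaks filtered the members alone and adds no support. SNF5 comparisons that had not passed changed sign without passing. Against ARID1A and ARID2 only, the odds ratio was 1.13 within 5 strata of width, 1.11 for SNF5 scores of at least 19 and 1.415 for SNF5 within 1000 bp (adjusted p from 0.148 to 0.48). Against ARID1A and ARID1B only, it was 1.16 with peaks joined at most 1000 bp apart, 1.12 for scores of at least 19 and 1.48 for SNF5 within 1000 bp (adjusted p from 0.148 to 0.412). The enhancer comparison with all 3 ARIDs over the whole genome turned to 0.862 when any peak of the region was counted (Fisher exact test, adjusted p = 0.154). No conclusion is drawn from it, because the state labels could be read on chromosome 1 alone. The enhancer comparison with ARID1A and ARID1B only was 1.425 and no longer passed on chromosome 1 (Fisher exact test, adjusted p = 0.443), where fewer regions enter. The causes were not tested. The chromosome 1 setting and that without nearby ARID1A peaks were chosen after seeing the data. No paired analysis was possible because peaks were called by the authors on merged replicates, and for the same reason no replicate could be left out.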
